A study of Mus musculus with 8 samples.

Results

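Genes whose RNA was lower or higher in regulatory T (Treg) cells without the transcription factor RelB are described here: Serpina3g, Ptpn5, Pkdcc, Marcksl1, Rln3, Kcnf1 and Gsto1. They are 7 of the 22432 genes in the deposited expression table, and all 7 were among the 13797 genes with enough signal to test. They were chosen from the measured differences of RelB-KO and DKO cells from WT and from the opposite move in Nfkb2-KO cells. Those differences are therefore a description without a test. No numerical threshold was part of the choice.

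All cells carried a Cre recombinase with a YFP reporter driven by Foxp3, on a C57Bl/6 background, and came by sorting from pooled spleen and lymph node cells. WT cells had the Cre alone, RelB-KO cells also had floxed Relb (RelB F/F), Nfkb2-KO cells floxed nfkb2 (nfkb2 F/F), and DKO cells both floxed genes. Deletion was thus directed to cells that had expressed Foxp3, and deletion in other cells was not measured. Every culture received the same stimulation for 16 h, with coated anti-CD3 (5 µg/ml), soluble anti-CD28 (1 µg/ml), agonist anti-OX40 (2 µg/ml) and IL-2 (10 ng/ml), so no unstimulated state was measured. There were 2 libraries per genotype, and the age of the mice and whether replicates came from separate mice are not given in the sources used here. P-values therefore measure only the spread between these libraries. That spread may be technical, except in WT, where the libraries differed in sex-linked genes as given below.

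RelB and the product of Nfkb2 act in the alternative branch of the NF-kB pathway, which receptors such as OX40 and the lymphotoxin-beta receptor switch on through the kinase NIK. The Nfkb2 product is made as the precursor p100, which retains RelB in the cytoplasm until p100 is cut to p52, the usual partner of RelB on DNA. Loss of Nfkb2 therefore removes both an inhibitor and a partner of RelB.

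The targeted genes followed their labels. Relb was between 10.49 and 10.84 (log2 expression value) in the libraries with intact Relb. It was at 6.35 and 6.52 in RelB-KO and at 6.74 and 7.08 in DKO. Nfkb2 was between 12.31 and 12.80 where intact, at 8.75 and 8.79 in Nfkb2-KO and at 9.29 and 9.85 in DKO. Both targeted transcripts were thus somewhat higher in DKO than in the single knockout, and what this adds to comparisons of DKO was not tested. Foxp3, which defines Treg cells, was between 13.95 and 14.28 in every library. One library stood apart: in WT replicate 1 the X-inactivation RNA Xist was at 8.17, against 14.61 to 15.13 elsewhere, and the Y-linked gene Ddx3y was at 11.60, against 4.25 to 4.35 elsewhere. Low Xist with high Ddx3y marks male cells and the reverse marks female cells, though the sources used here give no sex. The WT libraries thus did not come from the same mouse, and every comparison with WT mixes in this difference. The differences of the 7 genes from WT are therefore also given without that library. Calls of other genes against WT made only with the replicate block described below were not repeated without it. The part of sex in the values was not tested. The read depth behind each value is unknown, because counts were not used here.

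Promoter sequence is shown for the genes that were below WT without RelB and were above WT without Nfkb2, because RelB acts by binding DNA at kappa-B sites. Each window runs from 250 bases before to 50 bases after the RefSeq transcript start (GRCm38.p6), in the direction of transcription. Capitals mark matches to the loose 10-base pattern GGGNNNNNCC on either strand, with overlapping matches run together. The windows lie at chr12:104235897-104236196 (plus strand) for Serpina3g, at chr7:47132549-47132848 (minus strand) for the second of the Ptpn5 starts, at chr17:83215033-83215332 (plus strand) for Pkdcc and at chr4:129513331-129513630 (plus strand) for Marcksl1.
Serpina3g: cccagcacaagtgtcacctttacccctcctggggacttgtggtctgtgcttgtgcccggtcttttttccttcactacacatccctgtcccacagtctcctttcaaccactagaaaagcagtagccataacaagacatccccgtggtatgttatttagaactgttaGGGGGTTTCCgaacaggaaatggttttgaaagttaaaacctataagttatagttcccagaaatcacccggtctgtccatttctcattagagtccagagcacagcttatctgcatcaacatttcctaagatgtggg
Ptpn5: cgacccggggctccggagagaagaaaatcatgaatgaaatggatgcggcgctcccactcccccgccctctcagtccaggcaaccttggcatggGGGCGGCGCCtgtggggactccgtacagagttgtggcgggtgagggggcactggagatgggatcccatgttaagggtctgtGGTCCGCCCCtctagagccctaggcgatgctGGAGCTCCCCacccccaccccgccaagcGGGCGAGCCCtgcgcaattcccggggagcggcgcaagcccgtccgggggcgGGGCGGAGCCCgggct
Pkdcc: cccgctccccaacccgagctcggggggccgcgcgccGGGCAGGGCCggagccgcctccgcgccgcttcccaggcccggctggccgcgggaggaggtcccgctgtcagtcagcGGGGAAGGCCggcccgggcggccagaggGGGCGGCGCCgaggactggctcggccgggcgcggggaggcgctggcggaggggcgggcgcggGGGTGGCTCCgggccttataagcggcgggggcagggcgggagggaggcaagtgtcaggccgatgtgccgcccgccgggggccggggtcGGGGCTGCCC
Marcksl1: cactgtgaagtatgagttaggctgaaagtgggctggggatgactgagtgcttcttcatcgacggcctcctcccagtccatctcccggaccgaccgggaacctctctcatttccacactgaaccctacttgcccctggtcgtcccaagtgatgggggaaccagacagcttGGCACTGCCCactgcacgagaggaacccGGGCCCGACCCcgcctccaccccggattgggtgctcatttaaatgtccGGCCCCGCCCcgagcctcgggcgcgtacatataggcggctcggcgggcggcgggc

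The Serpina3g window held 1 match, GGGGGTTTCC, which starts 85 bases before the transcript start (position -85) on the plus strand. It was also the only match to the stricter kappa-B consensus among the 8 windows of the 7 genes. The stricter consensus was found in 4.51% of 32851 mouse promoter windows of the same length. The loose pattern was found in 50.79% of them, and in those of Ptpn5 (second start), Pkdcc, Marcksl1 and Gsto1, a share at which nothing is read from its presence. The windows shown for Pkdcc and Ptpn5 were 82.7% and 69.0% G and C, against a median of 52.7% over all windows. The windows of Rln3 and Kcnf1 and of the first Ptpn5 start held no match to either pattern, which says only that these letters are absent there. Binding of RelB was not measured.

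Serpina3g, Ptpn5, Pkdcc and Marcksl1 had their lowest values in RelB-KO and DKO, intermediate values in WT and their highest values in Nfkb2-KO. In each of these genes both libraries of RelB-KO and of DKO lay below both WT libraries, and both Nfkb2-KO libraries lay above them. That pattern was met by 135 of the tested genes (0.978%), and it was one basis of the choice of genes. RNA was measured in bulk, so fewer cells with a transcript and less transcript per cell cannot be told apart.

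Serpina3g (chr12:104236245-104241939, plus strand, mm10) encodes an intracellular serpin that in mice inhibits cathepsins released from lysosomes and is a known NF-kB target. It was at 11.10 and 11.49 in the WT libraries, 10.25 and 10.42 in RelB-KO, 10.37 and 10.48 in DKO, and 11.97 and 12.11 in Nfkb2-KO. RelB-KO and DKO overlapped each other, and no library of any other pair of genotypes overlapped. Against WT, the mean was lower by 1.94-fold in RelB-KO (log2 difference -0.96 ± 0.14, SE of the limma model, n = 2 libraries per genotype) and by 1.83-fold in DKO (-0.87 ± 0.14). It was 1.68-fold higher in Nfkb2-KO (0.75 ± 0.14). Without WT replicate 1 the log2 differences were -1.15, -1.06 and 0.56. Serpina3g belongs to a cluster of near copies, and 15.5% of the 50-base stretches in its transcripts also occur in other genes (8.89% in Serpina3h, 6.84% in Serpina3i and 6.29% in Serpina3f). Its values are uncertain to that extent. Serpina3h and Serpina3i stayed at the floor of the scale in every library, between -1.37 and -1.36 and between -1.73 and -1.72.

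Ptpn5 (chr7:47077795-47133684, minus strand) encodes STEP, a tyrosine phosphatase best known from neurons, where it dephosphorylates MAP kinases and the Src family kinase Fyn. It was at 9.93 and 9.94 in WT, 9.37 and 9.47 in RelB-KO, 9.40 and 9.43 in DKO, and 10.45 and 10.34 in Nfkb2-KO. The steps were the smallest of the 4 genes and the libraries of each genotype lay close together. The log2 differences from WT were -0.51 ± 0.08 in RelB-KO, -0.52 ± 0.08 in DKO and 0.46 ± 0.08 in Nfkb2-KO. Leaving out WT replicate 1 gave -0.51, -0.52 and 0.46. The antisense gene Gm14377 overlaps Ptpn5 and had no value under that symbol. Whether counting used strand is not given in the sources used here, so reads of the pair cannot be told apart.

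Pkdcc (chr17:83215292-83225070, plus strand) encodes VLK, a secreted kinase that phosphorylates extracellular proteins on tyrosine. It was at 7.22 and 7.94 in WT, 6.56 and 6.55 in RelB-KO, 6.49 and 6.49 in DKO, and 8.82 and 8.14 in Nfkb2-KO. The cells without RelB gave nearly the same value in all 4 libraries, whereas the 2 WT libraries were 0.72 apart and the 2 Nfkb2-KO libraries 0.68 apart in the other direction. The log2 differences from WT were -1.03 ± 0.28 in RelB-KO, -1.09 ± 0.28 in DKO and 0.90 ± 0.28 in Nfkb2-KO. Without WT replicate 1 they were -1.39, -1.45 and 0.54, and without WT replicate 2 they were -0.67, -0.73 and 1.26. The excess in Nfkb2-KO was 1.60 in replicate 1 and 0.20 in replicate 2.

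Marcksl1 (chr4:129513581-129515985, plus strand) encodes a MARCKS-like protein that binds membranes, calmodulin and actin. It was at 10.57 and 10.54 in WT, 9.53 and 10.07 in RelB-KO, 9.65 and 9.69 in DKO, and 11.49 and 11.59 in Nfkb2-KO. The RelB-KO libraries were the only ones far apart, and they spanned both DKO libraries. The log2 differences from WT were -0.75 ± 0.16 in RelB-KO (-0.48 without RelB-KO replicate 1), -0.88 ± 0.16 in DKO and 0.99 ± 0.16 in Nfkb2-KO. Against WT replicate 2 alone they were -0.73, -0.86 and 1.004. In its transcripts 1.61% of the 50-base stretches also occur in other genes, the pseudogene Marcksl1-ps4 among them. The end of Hdac1, on the other strand, lies 118 bases beyond Marcksl1. Hdac1 was between 10.18 and 10.39 in the replicate 1 libraries and between 11.40 and 11.65 in the replicate 2 libraries, a split by replicate number that Marcksl1 did not have.

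**Figure D1:**
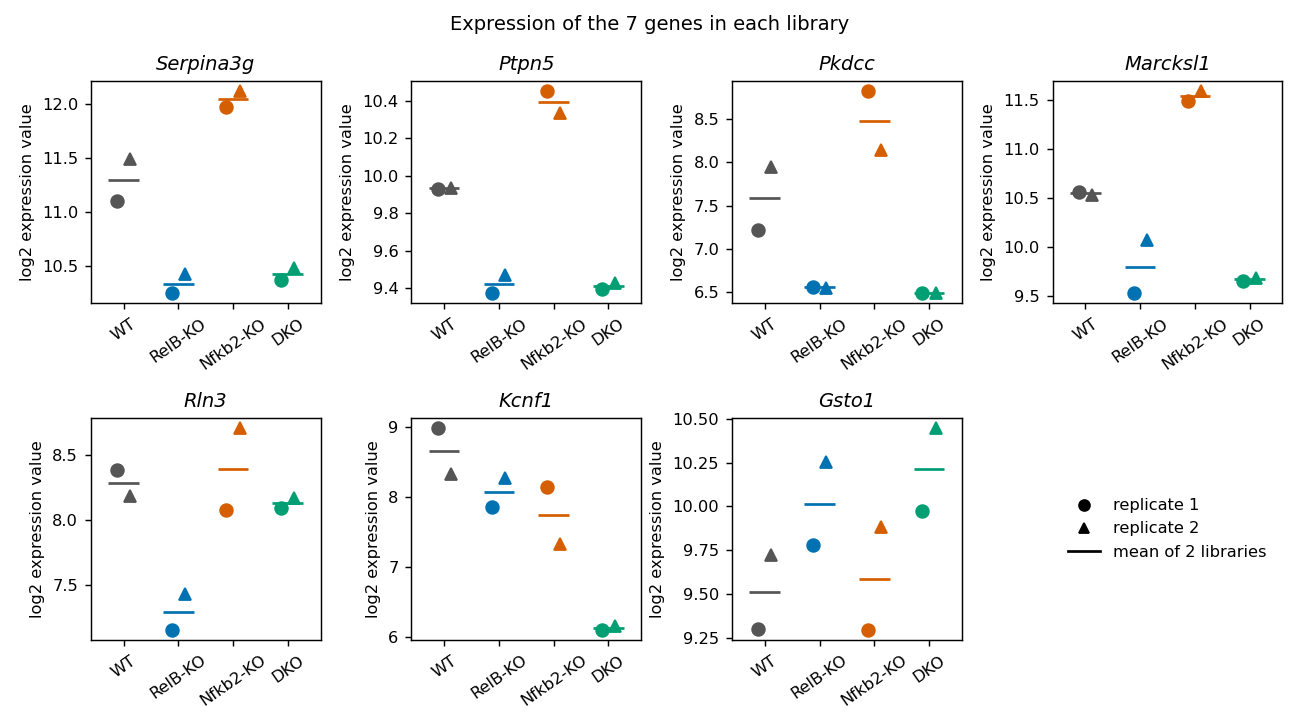
Log2 expression value (vertical axis, own range in each panel) of the 7 genes in the 8 libraries by genotype, with circles for replicate 1, triangles for replicate 2 and a bar at the mean of 2 libraries. In Serpina3g, Ptpn5, Pkdcc and Marcksl1 the RelB-KO and DKO libraries sit below WT and the Nfkb2-KO libraries above it, whereas Rln3 is low in RelB-KO, Kcnf1 in DKO, and Gsto1 is high in RelB-KO and DKO.

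Rln3 (chr8:84042929-84045000, minus strand) encodes relaxin-3, a peptide of the insulin and relaxin family known as a neuropeptide that acts through the receptor Rxfp3. It was at 8.38 and 8.18 in WT, 7.15 and 7.43 in RelB-KO, 8.09 and 8.16 in DKO, and 8.08 and 8.71 in Nfkb2-KO. The low libraries were those of RelB-KO alone, and the higher DKO library lay just under the lower WT library. The log2 difference from WT was -0.99 ± 0.21 in RelB-KO, -0.15 ± 0.21 in DKO and 0.11 ± 0.21 in Nfkb2-KO. Set against WT replicate 2 alone, these were -0.89, -0.05 and 0.21. Rln3 therefore did not keep its low value when Nfkb2 was lost together with RelB, and it did not move the opposite way in Nfkb2-KO, whose libraries spanned those of WT.

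Il27ra, a cytokine receptor gene, starts 339 bases downstream of Rln3 on the same strand. Il27ra was at 12.14 and 12.33 in WT, 11.92 and 12.12 in RelB-KO, 12.16 and 12.34 in DKO, and 12.18 and 12.48 in Nfkb2-KO. Its RelB-KO library was thus the lowest within each replicate number, by a log2 difference of -0.22 ± 0.14 from WT that limma did not call. Its part in the Rln3 values was not tested. Rxfp3 was at the floor of the scale in every library, between -1.73 and -1.72.

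Kcnf1 (chr12:17172100-17176888, minus strand, a single-exon gene) encodes Kv5.1, a potassium channel subunit that carries no current alone and modifies Kv2 channels. It was at 8.99 and 8.33 in WT, 7.86 and 8.27 in RelB-KO, 8.15 and 7.32 in Nfkb2-KO, and 6.10 and 6.15 in DKO. DKO was lowest by a wide margin. RelB-KO came close to WT in replicate 2, where the difference was -0.06, against -1.12 in replicate 1. The log2 differences from WT were -0.59 ± 0.32 in RelB-KO, -0.92 ± 0.32 in Nfkb2-KO and -2.53 ± 0.32 in DKO, a 5.78-fold lower level. Against WT replicate 2 alone they were -0.27, -0.59 and -2.20. The authors' deposited log2 fold changes for Kcnf1 are smaller, at -0.28 in RelB-KO, -0.43 in Nfkb2-KO and -0.89 in DKO. The size of its fall is therefore uncertain. Kcnf1 was thus below WT in Nfkb2-KO as well, the same direction as without RelB, and its label as a gene lowered by RelB loss holds chiefly for cells that also lacked Nfkb2.

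Gsto1 (chr19:47854970-47864790, plus strand) encodes an omega-class glutathione transferase, an enzyme with thiol transferase activity that removes glutathione from proteins. It was at 9.30 and 9.72 in WT, 9.78 and 10.25 in RelB-KO, 9.97 and 10.45 in DKO, and 9.29 and 9.88 in Nfkb2-KO. It was the only one of the 7 genes that was higher without RelB. Replicate 2 exceeded replicate 1 by 0.43 to 0.59 in every genotype, nearly as much as RelB loss added. Within each replicate number the order was steadier: RelB-KO exceeded WT by 0.48 and 0.53, and DKO exceeded WT by 0.68 and 0.73. The log2 differences from WT were 0.51 ± 0.28 in RelB-KO, 0.70 ± 0.28 in DKO and 0.08 ± 0.28 in Nfkb2-KO. Without WT replicate 1 they were 0.29, 0.49 and -0.14. With all libraries and replicate number as a block in the model, the SE was 0.07 for each knockout against WT. The Nfkb2-KO libraries overlapped those of WT, so no opposite move was seen. Gsto1 overlaps Cfap43 on the other strand, which had no value under that symbol. Its near relative Gsto2, which begins 743 bases further on, was between 1.75 and 1.80 in every library.

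**Figure D2:**
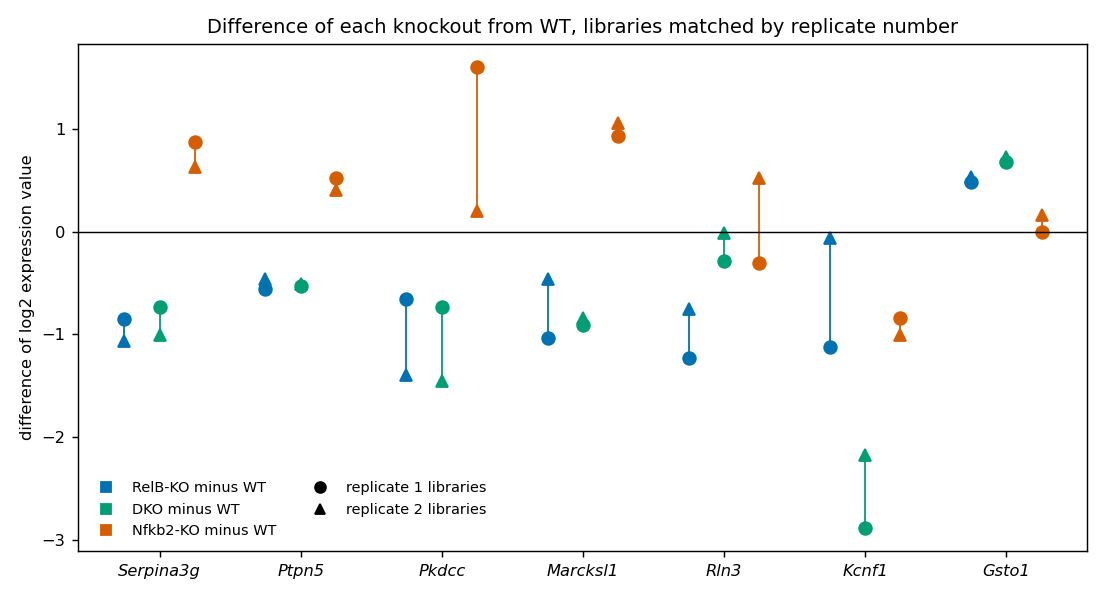
Difference of the log2 expression value of each knockout library from the WT library of the same replicate number (vertical axis) for the 7 genes, with colours for the knockout and shapes for the replicate. The line joins the replicates of 1 gene, which are 0.20 and 1.60 for Pkdcc in Nfkb2-KO, -0.30 and 0.52 for Rln3 in Nfkb2-KO, and 0.48 and 0.53 for Gsto1 in RelB-KO.

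The 3 sets of differences from WT share the WT libraries and were the basis of the choice of genes, so nothing is read from the following counts. In RelB-KO against WT, limma on all tested genes called 0 of the 7 at a Benjamini-Hochberg adjusted p under 0.05, with 1 gene called in all (0.00725%) and 171 at an unadjusted p under 0.05; without WT replicate 2 the count was 12. With replicate number as a block it called Serpina3g among 2 genes (0.0145%). The authors' deposited table has adjusted p values under 0.05 for 6 of the 7, all but Kcnf1. The same holds for 0.119% of the 10959 genes to which it gives an adjusted p in this comparison. In DKO against WT, limma called 0 of the 7 and 2 genes in all (0.0145%), with 715 at an unadjusted p under 0.05, and 13 genes were called without WT replicate 2, 3 without DKO replicate 2 and 1 when either Nfkb2-KO library or WT replicate 1 was dropped. The block brought in Serpina3g, Kcnf1 and Gsto1 (9 genes in all, 0.0652%). The authors' deposited table passes 6 of the 7, all but Rln3 (1.23% of the 10959 genes with its adjusted p).

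In Nfkb2-KO against WT, limma called 0 of the 7 and 47 genes in all (0.341%), with 1472 at an unadjusted p under 0.05. The 47 became 0 without WT replicate 1 and at most 29 without any other single library. With the block, 3 of the 7 were called, Serpina3g, Ptpn5 and Marcksl1 (402 genes in all, 2.91%). The authors' deposited table passes those 3 and Pkdcc (6.22% of the 11881 genes with its adjusted p). Libraries did not overlap with WT in 7 of 7 genes for RelB-KO (20.6% of tested genes), in 7 of 7 for DKO (34.1%) and in 5 of 7 for Nfkb2-KO (42.5%). The sizes in the authors' deposited table were close to those above for most genes, such as a log2 fold change of -1.04 for Serpina3g in RelB-KO. For Kcnf1 in DKO the authors' deposited table gives a log2 fold change of -0.89.

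The comparison of DKO with RelB-KO, that is Nfkb2 loss in cells already without RelB, is the difference of the DKO and RelB-KO comparisons with WT on which the genes were chosen, so it too is described only. Limma called 0 of the 7 and 1 gene in all (0.00725%), with 398 at an unadjusted p under 0.05 (2 genes without DKO replicate 2, and 0 without any other single library), and with the block 0 of the 7 and 2 genes in all (0.0145%). Libraries of DKO and RelB-KO did not overlap in 3 of the 7, Pkdcc, Rln3 and Kcnf1, against 27.5% of tested genes. For the 4 genes that were above WT in Nfkb2-KO, the mean DKO minus RelB-KO difference was 0.09 ± 0.14 for Serpina3g, -0.01 ± 0.08 for Ptpn5, -0.07 ± 0.28 for Pkdcc and -0.13 ± 0.16 for Marcksl1. Choosing genes that were low in both genotypes steers these values towards 0.

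Rln3 and Kcnf1 gave the 2 largest DKO minus RelB-KO differences of the 7. Rln3 was 1.79-fold higher in DKO than in RelB-KO (0.84 ± 0.21), by 0.94 and 0.73 in the replicate numbers. Kcnf1 was 3.83-fold lower (-1.94 ± 0.32). Gsto1 was higher in DKO by 0.19 ± 0.28, or by 0.19 and 0.20 within the replicate numbers.

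**Figure D3:**
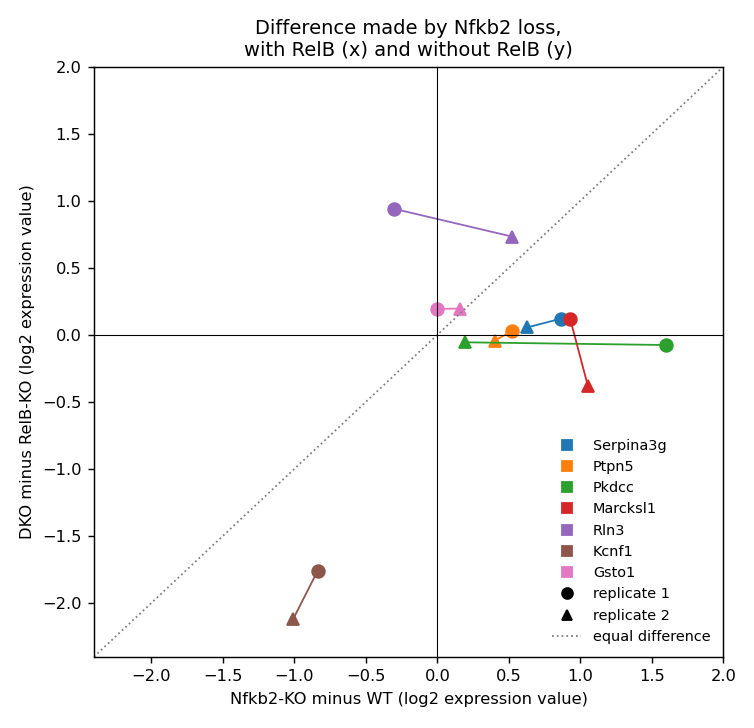
Difference made by Nfkb2 loss in cells with RelB (Nfkb2-KO minus WT, horizontal axis) against that in cells without RelB (DKO minus RelB-KO, vertical axis), in log2 expression value, with circles for replicate 1 and triangles for replicate 2 and a line joining them. The axes share no library. Serpina3g, Ptpn5, Pkdcc and Marcksl1 lie right of 0 and near 0 on the vertical axis, Kcnf1 is below 0 on both, and Rln3 is above 0 on the vertical axis.

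RelB loss in cells already without Nfkb2 (DKO against Nfkb2-KO) follows from the differences used in the choice and is described only. The choice favoured calls of the 7 genes here, so nothing is read from which of them passed. Serpina3g was 3.07-fold lower (-1.62 ± 0.14), Ptpn5 1.97-fold lower (-0.98 ± 0.08), Pkdcc 3.98-fold lower (-1.99 ± 0.28) and Marcksl1 3.65-fold lower (-1.87 ± 0.16). Kcnf1 was 3.05-fold lower (-1.61 ± 0.32), Gsto1 was 1.54-fold higher (0.62 ± 0.28) and the Rln3 libraries overlapped (-0.26 ± 0.21). The first 4 of these 7 passed limma, as did 106 genes in all (0.768%), a count of 8 to 58 when any 1 library was left out. Of the 8 such omissions, Serpina3g and Marcksl1 passed in 4 each, failing without either Nfkb2-KO or either DKO library (highest adjusted p 0.0887 and 0.108). Ptpn5 passed in 5, failing without Nfkb2-KO replicate 1 or either DKO library (up to 0.0813). Pkdcc passed in 2, those without a WT library (up to 0.265), and also failed without a variance trend (0.0822) and with only the genotypes compared (0.130), where Ptpn5 failed too (0.0864). With the block all but Rln3 passed, 6 of 7 against 5.02% of tested genes.

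Across the 8 libraries, after subtracting the mean of each replicate number, Serpina3g, Ptpn5, Pkdcc and Marcksl1 followed one another closely, with Pearson coefficients from 0.93 to 0.99. Gsto1 ran against them, from -0.85 to -0.81. Rln3 (0.52 to 0.67) and Kcnf1 (0.36 to 0.41) followed them less closely, and with each other gave -0.11. These coefficients describe 8 libraries of 4 genotypes on which the genes were chosen, and no p is attached.

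Among the 703 tested genes that varied enough, those most like each of the 7 included other members. Serpina3g was most like Ptpn5 (0.99), Ankrd6 (0.98) and Dscam (0.98), the last a cell adhesion gene at 7.14 and 7.84 in WT, 6.00 and 6.32 in RelB-KO, 6.01 and 5.96 in DKO, and 9.95 and 9.94 in Nfkb2-KO. Ptpn5 was most like Serpina3g, Marcksl1 and Serpina3f (0.98), and Marcksl1 was most like Ptpn5, Dscam and Cd200 (0.98). Pkdcc was most like Arnt2 (0.998), a bHLH-PAS transcription factor at 9.004 and 9.52 in WT, 8.63 and 8.65 in RelB-KO, 8.67 and 8.65 in DKO, and 9.99 and 9.69 in Nfkb2-KO, and then Fmn1 (0.99) and D430019H16Rik (0.98).

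The genes outside that group had other companions. Rln3 was most like Zfp783 (0.88), the chemokine gene Ccl4 (0.83) and Dennd3 (0.82), the weakest likeness of the 7. Kcnf1 was most like Penk (0.95), which encodes proenkephalin and differed by -0.77 in DKO against -0.14 in RelB-KO, then the histone deacetylase gene Hdac9 (0.94) and Xlr3b (0.87). Gsto1 was most like Ebi3 (0.97), the shared subunit of the cytokines IL-27 and IL-35, then Gpt2 (0.93) and the nuclear receptor gene Pparg (0.93). Ebi3 was at 9.09 and 9.10 in WT, 9.77 and 9.44 in RelB-KO, 9.81 and 9.68 in DKO, and 9.09 and 9.10 in Nfkb2-KO.

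Relatives of the 7 genes mostly lacked their pattern, but some tested relatives were weakly expressed and could hardly have shown it. Examples are Serpinb1b (0.10 to 0.13 over the libraries), Ptpn14 (0.29 to 0.32) and Gsto2 (1.75 to 1.80). The sign counts and medians below include such genes. Limma called no gene of the family and pathway lists in RelB-KO against WT or DKO against RelB-KO, with or without the block. Of 10 other clade A3 serpins, 1 was expressed enough to test: Serpina3f, the next gene before Serpina3g, 15115 bases away. Serpina3f was at 7.02 and 7.11 in WT, 6.64 and 6.80 in RelB-KO, 6.70 and 6.62 in DKO, and 7.34 and 7.26 in Nfkb2-KO, the same order of genotypes as Serpina3g at smaller steps. Its fall in DKO against Nfkb2-KO passed limma (-0.64 ± 0.09, adjusted p = 0.0470), but in none of the fits without 1 library (0.0720 to 0.278). Since it shares 6.29% of the Serpina3g stretches, how far it moved on its own is uncertain.

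Of 15 other serpin genes tested, none passed against WT in limma. With the block Serpinc1, antithrombin, rose in Nfkb2-KO (0.68 ± 0.14). With the block too, Serpinc1 (-0.82 ± 0.14) and the granzyme B inhibitor Serpinb9 (-0.51 ± 0.16) fell in DKO against Nfkb2-KO. Here and below, ± gives the SE of the fit without the block, also beside calls made only with it. For Serpinb9 the SE with the block was 0.10. Among 14 cathepsin genes, which include cysteine proteases of the kind that Serpina3g inhibits and also aspartic and serine proteases, the median difference in RelB-KO was -0.02, against 0.002 over all genes. Ctss fell in DKO against Nfkb2-KO by limma (-0.85 ± 0.10, adjusted p = 0.0269), a call that held only without WT replicate 1 or 2 when 1 library was left out. With the block Ctsc, Ctss and Ctsw rose and Ctsl fell in Nfkb2-KO against WT, by 0.40, 0.50, 0.67 and -0.43, and Ctsc, Ctss and Ctsw fell and Ctsh rose in DKO against Nfkb2-KO.

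Of 15 other tyrosine phosphatase genes, 10 were below and 5 above WT in RelB-KO, with a median of -0.02, and only Ptpn3 was called in any comparison, higher in Nfkb2-KO with the block (0.46 ± 0.10). Ptpn7, a phosphatase of MAP kinases in blood cells, was between 12.09 and 12.37 and differed by -0.12 in RelB-KO. None of the 6 kinase genes whose products STEP acts on was called. Of 7 other secretory kinase genes, the block alone called Fam20c lower (-0.38 ± 0.08) and Fam69b and Fam69c higher (0.44 ± 0.15 and 0.70 ± 0.12) in DKO against Nfkb2-KO. None of 7 MARCKS family and cortical actin genes was called, and Marcks itself stayed between 5.65 and 5.99. Of 8 relaxin family genes 3 could be tested and none was called.

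Of 20 other potassium channel genes tested, Kcnk6 alone was called, higher in Nfkb2-KO (0.74 ± 0.14) and lower in DKO against Nfkb2-KO (-0.74 ± 0.14), with the block only. The T cell channel gene Kcna3 was between 9.82 and 10.47 and differed by -0.11 in DKO, where Kcnf1 was lowest. Of 19 other glutathione transferase genes, 12 were above and 7 below WT in RelB-KO, with a median of 0.02, and only Hpgds was called, higher in DKO against Nfkb2-KO with the block (0.58 ± 0.22). Of 18 glutathione and thiol redox genes, 13 were above WT in RelB-KO and 13 in DKO, with medians of 0.07 and 0.13, and none was called in any comparison.

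**Figure D4:**
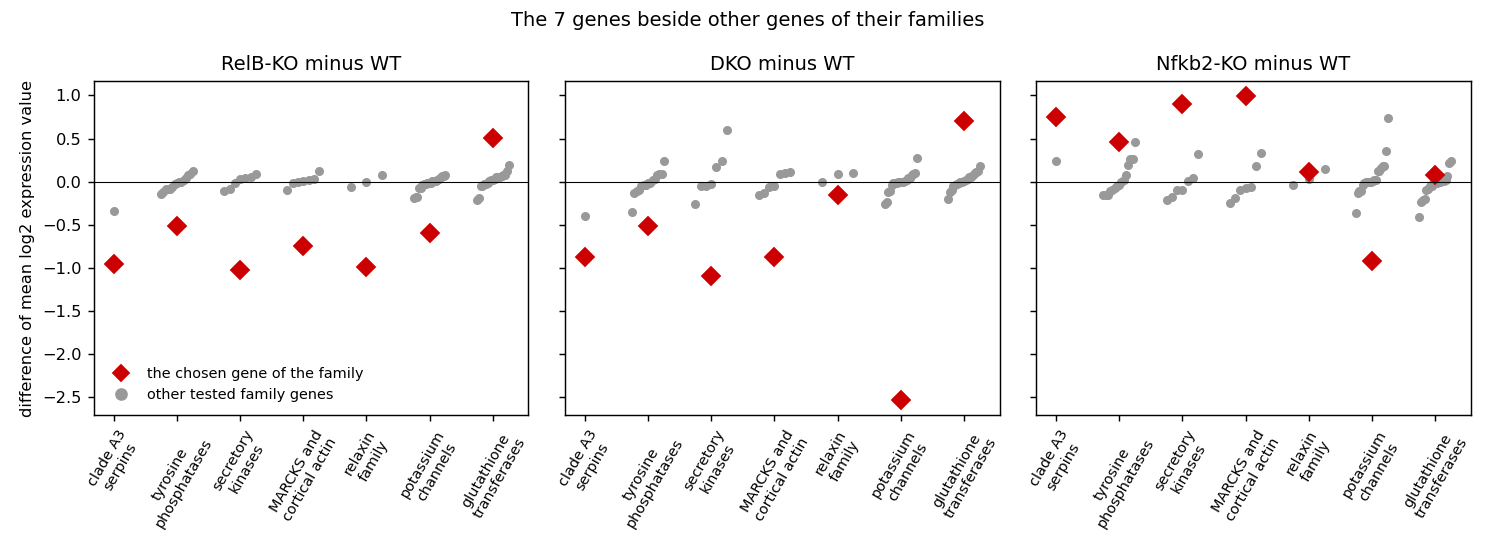
Difference of mean log2 expression value from WT (vertical axis) in RelB-KO, DKO and Nfkb2-KO for the 7 genes (red diamonds) and for the other tested genes of each family (grey circles). In RelB-KO the 7 genes, which were chosen for their differences, lie outside the range of the other tested genes of their families. For Rln3 and Gsto1 this is not so in Nfkb2-KO. Some grey circles are weakly expressed genes whose values could hardly differ between libraries.

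Of 16 NF-kB subunit and alternative pathway genes, 1 was called by limma in Nfkb2-KO against WT and 4 with the block. Tnfrsf11a, which encodes the receptor RANK, rose in Nfkb2-KO (1.01 ± 0.13, limma adjusted p = 0.0448, and 0.101 to 0.281 when 1 library was left out). The block added Birc2 (0.81), Traf2 (0.37) and Traf3 (0.34), which encode the complex that degrades NIK. In DKO against Nfkb2-KO, Tnfrsf11a (-1.05 ± 0.13) and Birc2 (-1.01 ± 0.13) fell by limma. When 1 of the 8 libraries was left out, Birc2 was still called in 1 omission and Tnfrsf11a in 0. The block added lower Traf2 and Rel and higher Ltbr. Of 9 tested genes known for alternative NF-kB control in other cells, the adhesion molecule gene Vcam1 rose in Nfkb2-KO (1.71 ± 0.17, adjusted p = 0.0280) and fell in DKO against Nfkb2-KO (-2.06 ± 0.17, adjusted p = 0.0108). The first Vcam1 call held in 3 of the 8 omissions, not without WT replicate 1, either Nfkb2-KO library or either DKO library. The second held in 4, not without either Nfkb2-KO or either DKO library.

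Ltb, lymphotoxin beta, fell in DKO against Nfkb2-KO by limma (-1.21 ± 0.10, adjusted p = 0.0116, and up to 0.0887 without either library of those genotypes) and, with the block only, fell in DKO against WT (-0.73 ± 0.10, adjusted p = 0.0389) and rose in Nfkb2-KO (0.48 ± 0.10). The block also called Bcl2a1a higher in Nfkb2-KO (0.47 ± 0.08), and Bcl2a1a and Tnfsf11 lower and Ebi3 higher in DKO against Nfkb2-KO. In RelB-KO, 7 of the 9 were below WT, with a median of -0.09 and none called.

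Markers of other cells were compared with the order of the 4 genes. The 9 listed myeloid and dendritic markers, summed on the un-logged scale, were between 610 and 661 in Nfkb2-KO, between 368 and 470 in WT, between 329 and 542 in RelB-KO and between 300 and 393 in DKO, and thus highest in Nfkb2-KO, as Serpina3g, Ptpn5, Pkdcc and Marcksl1 were. That sum was carried by Zbtb46, the only 1 of the 9 with both Nfkb2-KO libraries above both WT libraries, at 8.49 and 8.07 in WT and 9.12 and 9.01 in Nfkb2-KO, while Xcr1 was below WT. Without Zbtb46 the sum was between 93.9 and 106 in Nfkb2-KO and between 98.4 and 111 in WT. The part of Zbtb46 in the values of the 4 genes was not tested. The 8 listed T cell and Treg markers summed to between 171640 and 204410, with the highest sums in DKO. There Il2ra and Ctla4 lay above both WT libraries, Cd3e and Cd3g below them, and the other 4 overlapped WT. Without Il2ra the sum was between 110150 and 119740 in DKO and between 109330 and 111360 in WT, ranges that overlap. The 6 listed B cell markers, with Pax5 at 0, summed to 153 to 179 in WT, 162 to 213 in RelB-KO, 197 to 208 in Nfkb2-KO and 216 to 226 in DKO. The highest of them, Cd79b, was at 7.09 and 7.35 in WT and 7.61 and 7.19 in RelB-KO. It was at 7.58 and 7.50 in Nfkb2-KO and 7.63 and 7.72 in DKO, and its part in the values of the 7 genes was not tested. The 6 CD8 T and NK markers summed to between 497 and 791. Of 5 listed neuron markers Rbfox3 and Syt1 were at 0, and the sum stayed between 6.27 and 6.61, although Ptpn5 and Rln3 are best known from neurons. The 3 listed erythroid markers summed to between 5.85 and 6.44, with Hba-a1 and Hba-a2 at 0.

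Among the nearest protein-coding genes on either side of the 7, none was called against WT in any knockout by limma, with or without the block. In DKO against Nfkb2-KO the block called Eml4, which lies 125860 bases from Pkdcc, in the direction of Pkdcc (-0.39 ± 0.11). Of those not named above, Tmem86a near Ptpn5 was between 5.39 and 5.70, Eml4 between 11.23 and 11.84, 2410004P03Rik and Pdia6 near Kcnf1 between 3.59 and 3.74 and between 12.22 and 12.64, and Sfr1 near Gsto1 between 11.06 and 11.38. Slc8a1 and Mrgpra6 were at the floor, and Fam229a and Gm10643 had no value under those symbols.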

How the data were processed

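RNA of 8 Treg libraries, 2 in each of 4 genotypes, was sequenced from TruSeq preparations, with 30 M reads per sample planned per the labels. The authors deposited log2 values per gene and library that the file headers call batch-corrected log2 RPKM. Un-logged they summed to between 18.16 M and 19.71 M per library, well above usual RPKM sums, so they are treated as log2 expression relative to library size, and weakly expressed genes sit at a shrunken floor. The submitters' processing notes name STAR, mm10 and DESeq2 1.10.1 without roles. Per the file headers, the table also holds the authors' log2 fold changes and adjusted p-values for each knockout. The 8 z-score columns were not used here.

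Of 22432 genes, 6247 were at 0 in all libraries and 1 was incomplete. Testing covered 13797 genes whose un-logged values averaged 1 or more. In R 4.3.3, limma 3.58.1 was fitted to the deposited values of all 8 libraries with genotype as the only term, empirical Bayes moderation and a variance trend, with 4 residual degrees of freedom. The threshold in each of 5 comparisons was a p of 0.05 after Benjamini-Hochberg adjustment over all tested genes. SE are from this model, also beside calls made only with the replicate block described below. DKO against RelB-KO was planned as a test of the 7 genes, but it follows from the comparisons on which they were chosen and is described only. The script was tested on simulated data in which libraries shared no shift by replicate number. The block model was not part of that test.

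Samples with the same replicate number deviated together: the replicate difference correlated across genes at 0.81 to 0.89 in the 6 pairs of genotypes, so the numbers pair the samples. A model with replicate number as a block has 3 residual degrees of freedom, and its calls are given where they differ. The SE given with ± leave this pairing out. They are wider than the SE of the block model where replicates shifted together, as in Gsto1 (0.28 against 0.07 in RelB-KO against WT).

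The 7 genes, the gene lists and the tests were chosen with earlier results of these data known. The genes named besides the 7 are list genes called in any comparison by either model, the 3 genes most like each of the 7 (Pearson over 8 libraries after centring by replicate number, SD of at least 0.25), the nearest protein-coding genes, and label checks. A few uncalled relatives (Ptpn7, Marcks, Kcna3, Rxfp3) and Ddx3y were named after their values were seen. The closest relative by protein identity was not used here. Gene positions are from GENCODE M21 and promoters from RefSeq, which matched all 7. Stretches of 50 bases were compared over GENCODE transcripts. Alternatives were a pseudocount of 1 on the un-logged values, no filter and a stricter minimum of 32, no variance trend, only the genotypes compared, quantile normalization, the block, and each library left out.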

Additional observations from a re-analysis of the deposited data

Results flagged for a closer look

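Pkdcc was marked because Nfkb2 loss moved it one way with RelB and the other way without RelB in both replicate numbers. Nfkb2-KO exceeded WT by 1.60 and 0.20, whereas DKO was below RelB-KO by small amounts, and the difference of the 2 effects was -0.96 on the log2 scale. The opposite signs were not tested on their own. In the limma interaction over all tested genes the adjusted p was 0.9998, and 0.463 with the replicate block.

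Marcksl1 was marked because the effect of Nfkb2 loss differed between cells with and without RelB (interaction of -1.12, SE 0.23). Its limma adjusted p was 0.470, and 0.0399 with the replicate block. Both interactions contain the differences from WT on which the genes were chosen, so neither is independent evidence. The interaction was -0.66 for Serpina3g and -0.47 for Ptpn5. Their limma adjusted p values were 0.89 and 0.610 without the block, and 0.0652 and 0.157 in the model with the block.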

How the results depend on the processing

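No member difference reversed except when 1 library was left out. Over these omissions the DKO minus RelB-KO difference spanned -0.00070 to 0.18 for Serpina3g, -0.056 to 0.039 for Ptpn5, -0.40 to 0.14 for Marcksl1 and -0.043 to 0.43 for Gsto1. The Nfkb2-KO minus WT difference spanned -0.21 to 0.42 for Rln3 and -0.22 to 0.37 for Gsto1, and DKO minus Nfkb2-KO spanned -0.58 to 0.053 for Rln3. The remaining member differences kept their sign under all alternatives.

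Counts of called genes moved more. Leaving out 1 library gave 1 to 12 genes in RelB-KO against WT and 1 to 13 in DKO against WT (the highest without WT replicate 2), 0 to 29 in Nfkb2-KO against WT, 0 to 2 in DKO against RelB-KO and 8 to 58 in DKO against Nfkb2-KO. The replicate block gave 2, 9, 402, 2 and 693. Fitting only the genotypes compared gave 0 in DKO against WT, 1 in Nfkb2-KO against WT, 0 in DKO against RelB-KO and 13 in DKO against Nfkb2-KO. Without a variance trend the counts were 1 in DKO against WT, 12 in Nfkb2-KO against WT and 0 in DKO against RelB-KO. In Nfkb2-KO against WT and DKO against RelB-KO the counts were 20 and 0 without a filter, and 15 and 0 with a minimum of 32. The causes were not tested. With 2 libraries per genotype and no counts, the depth of each value and small differences of weakly expressed genes stay unresolved.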
